A study of Caenorhabditis elegans with 17 samples.

Results

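Long intergenic non-coding RNA (lincRNA) genes are transcribed loci, mostly spliced and capped like messenger RNAs, that hold no long open reading frame. The genes described here are the 169 genes, with 176 transcripts, that the deposited count tables place in the lincRNA class, of 45506 gene IDs in the tables. Reads of each gene were summed over its transcripts, and reads on the strand opposite to the transcript (antisense reads) were taken as the candidate siRNAs. In 39 of the 169 genes at least 1 of 17 libraries held 100 or more antisense reads, 117 genes held between 1 and 99 in their highest library, and 13 had no antisense read in any library. The genes just inside this limit were linc-20, linc-121 and linc-143, with 116, 106 and 102 reads in their highest library, and those just outside were linc-90, linc-128 and linc-77, with 90, 90 and 82 reads. All 169 genes were found in the Ensembl annotation of the WBcel235 genome, from which all positions are taken, and where, in spite of the class name, 40 overlap a gene on the opposite strand and 31 share exonic bases with one. The 39 genes lie on all 6 chromosomes, with 10 on chromosome II, 7 on III, 7 on X, 6 on V, 5 on I and 4 on IV.

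Small RNAs of C. elegans grown at 20°C were sequenced with 1 library per condition. Total small RNA of L3 larvae came from the wild-type strain N2, from larvae labelled only dis-3(ust56), exos-1(ust57) or eri-1(mg366), and from eri-1(mg366) larvae that also carried exos-10(ok2269), exos-1(ust57), dis-3(ust56), or dis-3(ust56) together with the polymerase mutations rrf-1(pk1417) and rrf-2(ok210) (the rrf-1 rrf-2 library). NRDE-3-associated small RNA came from L3 larvae that carry 3xFLAG::GFP::NRDE-3 and eri-1(mg366), after immunoprecipitation (IP) of the tag; the control had no further mutation, and the other IP libraries had dis-3(ust56), exos-1(ust57), exos-10(ok2269), or dis-3(ust56) together with rrf-1(pk1417) and rrf-2(ok210) (the rrf-1 rrf-2 IP library). Total small RNA of young adults came from eri-1(mg366) animals on RNAi against fib-1, mtr-4 or nol-56 or with the empty vector L4440. Thus all IP and RNAi libraries carry eri-1(mg366), and only the N2, dis-3(ust56) and exos-1(ust57) libraries have an intact eri-1. The allele dis-3(ust56) is a point mutation in a cold shock domain of the enzyme, and exos-1(ust57) is a deletion made with CRISPR. The study's methods describe the strain in which deletions were made as one with eri-1(mg366) and tagged NRDE-3, and the labels name the tag only for the IP libraries. Sense reads of nrde-3 per 1000000 sense protein-coding reads were nevertheless 38.6 to 50.2 in the 3 L3 libraries of total RNA with intact eri-1 and 715 to 849 in all 5 with eri-1(mg366), and antisense reads of nrde-3 were at most 0.735 RPM in the 3 and 45.8 to 327 RPM in the 5. Effects of eri-1(mg366) and of whatever goes with these nrde-3 reads, such as a transgene, cannot be told apart in any comparison across these 2 sets.

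In C. elegans, an RNA-dependent RNA polymerase, Dicer and the exonuclease ERI-1 act together to make a class of endogenous primary siRNAs, and the RNAs these siRNAs recognise become templates for secondary siRNAs made by the RNA-dependent RNA polymerases RRF-1 and EGO-1. Secondary siRNAs are antisense to their template. NRDE-3 is an Argonaute protein that binds secondary siRNAs in somatic cells, carries them into the nucleus and represses transcription of the target; in eri-1 mutants it has few ligands and stays in the cytoplasm. The RNA exosome, of which DIS-3 and EXOS-10 are nucleases and EXOS-1 is a structural subunit, trims and degrades RNA, and MTR-4 is the helicase that feeds it substrates in the nucleus.

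The libraries held 5094172 to 17155933 reads on transcripts. Levels are given in RPM, the reads per 1000000 of a normalization number that leaves out the sense reads of rRNA and of protein-coding genes and that ranged from 145736 in the IP library of dis-3(ust56) to 6803553 in N2. The floor of 3 reads is 0.441 RPM in N2 and 20.6 RPM in the IP library of dis-3(ust56), so this IP library says little about low genes. No condition has a replicate. Ratios therefore compare libraries and not conditions, their 95% intervals (exact conditional for ratios, Wilson for levels) cover counting error only, and PCR copies of a molecule count as several reads. Labels were checked by sense reads of exos-1, rrf-1, rrf-2 and eri-1 per 1000000 sense protein-coding reads, and exos-10 was not checked. For exos-1 these were 12.9 in N2 (10 reads) and 1.70 in exos-1(ust57) (2 reads). In total RNA of eri-1(mg366) larvae they were 3.21 (2 reads), and 1.65 (1 read) with exos-1(ust57), too few reads to check that label. They were 20.1 in the IP control (47 reads) and 18.3 in the IP library labelled exos-1(ust57) (70 reads), which goes against the label of this IP library. From the eri-1(mg366) library with dis-3(ust56) to the rrf-1 rrf-2 library, rrf-1 went from 84.7 to 24.4 and rrf-2 from 41.5 to 1.88. For eri-1 they were 9.25 to 14.1 with intact eri-1 and 1.61 to 19.2 with eri-1(mg366) in L3 larvae, from 1 to 13 reads a library, so they do not separate the genotypes.

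The summed antisense level of the lincRNA genes was highest in the 3 libraries with intact eri-1. N2 had 14391 RPM (95% interval 14302 to 14480, 97908 reads), the dis-3(ust56) library 15296 and the exos-1(ust57) library 17754. With eri-1(mg366) the L3 libraries held 1984 RPM in the single mutant (1930 to 2039, 5045 reads), 1867 with exos-10(ok2269), 1166 with exos-1(ust57), 906 with dis-3(ust56) and 870 in the rrf-1 rrf-2 library. A single gene, linc-22, gave 73.5%, 71.7% and 64.0% of the lincRNA antisense reads in the N2, dis-3(ust56) and exos-1(ust57) libraries, and between 0.339% and 4.77% in the 5 other L3 libraries of total RNA. Among the IP libraries the control held 1550 RPM, the rrf-1 rrf-2 library 2674, dis-3(ust56) 3911, exos-10(ok2269) 4239 and the library labelled exos-1(ust57) 7669. The young adult libraries held 10970 RPM with L4440, 4047 with fib-1 RNAi, 6312 with mtr-4 RNAi and 2315 with nol-56 RNAi.

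**Figure D1:**
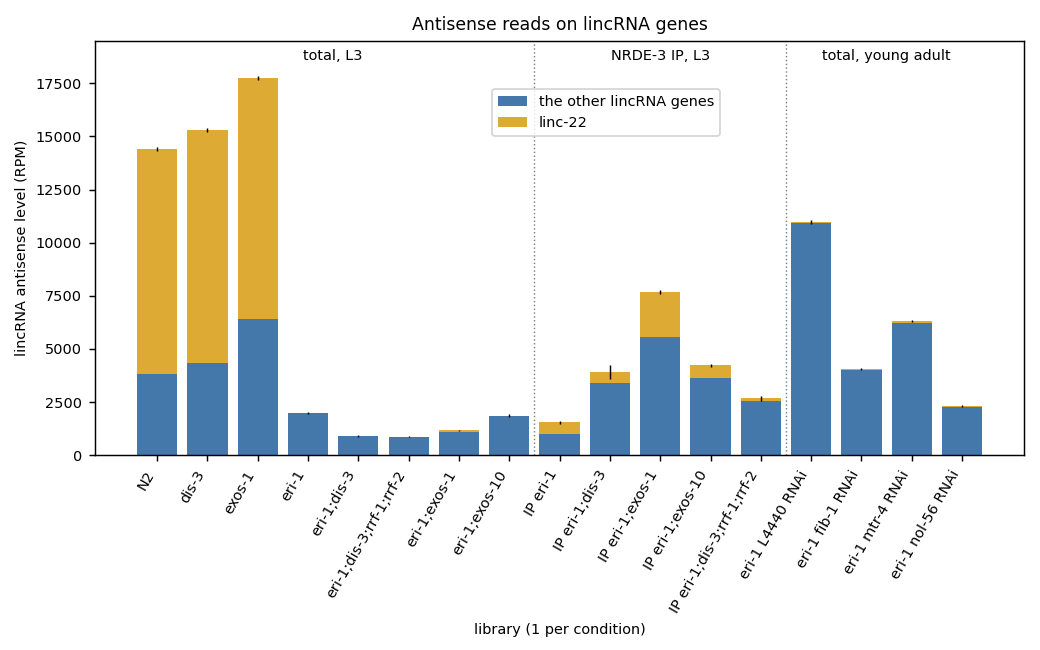
Antisense level of all 169 lincRNA genes (RPM, linear axis from 0) in each of the 17 libraries, with linc-22 stacked on the other genes; the thin black bars on the totals are 95% Wilson intervals, which cover counting error only. The 3 libraries with intact eri-1 stand at 14391, 15296 and 17754 RPM, and linc-22 is 64.0% to 73.5% of them.

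Summed over the 169 genes, the reads were mostly antisense, but this does not hold for each gene. Antisense reads made up 99.1% of the lincRNA reads in N2, between 81.3% and 99.3% in the 8 L3 libraries of total RNA and between 52.3% and 82.4% in the IP libraries. On the sense strand 15 genes reached 100 reads in a library, and 10 of these also did so on the antisense strand. The genes with the most sense reads in a library were linc-167 (698 in the IP library labelled exos-1(ust57)), linc-154 (673 with mtr-4 RNAi), linc-109 (619 in the same IP library as linc-167) and linc-22 (552 in the rrf-1 rrf-2 IP library). In N2 linc-30 had 190 sense and 197 antisense reads. In eri-1(mg366) larvae linc-167 had 51 sense and 20 antisense reads. linc-154 had 498 sense and 76 antisense reads with L4440, but 14 and 40 in N2.

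The comparison of eri-1(mg366) with N2 asks which lincRNA siRNAs differ in the mutant, with the difference in nrde-3 reads going with it. The summed antisense level was 7.25-fold lower in eri-1(mg366) (95% interval 7.05 to 7.46), and 1.93-fold lower without linc-22. Once the 40 genes with an opposite-strand neighbour on their span were left out, linc-22 and linc-8 among them, the ratio of eri-1(mg366) to N2 was 1.11. In linc-22 and linc-8 this overlap covers only 42 and 19 exonic bases, and the overlapping genes had at most 1 sense read in any library. Of 45 lincRNA genes with at least 20 antisense reads in both libraries together, 21 were at least 2-fold lower, where 18.5% of all genes tested were, and 7 were at least 2-fold higher, where 16.7% of all genes were. The median log2 ratio was -0.72 over the 45 genes and -0.10 over all 5698 genes tested.

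The genes behind this difference were linc-22, linc-8, linc-11 and a set of shorter ones. linc-22 (X:9069138-9073735, plus strand, 5 exons) had 71944 antisense reads in N2, 74485 in dis-3(ust56) larvae and 76810 in exos-1(ust57), that is 10575 to 11355 RPM. In the L3 libraries with eri-1(mg366) it had 26 reads in the single mutant, 57 with dis-3(ust56), 11 in the rrf-1 rrf-2 library, 353 with exos-1(ust57) and 37 with exos-10(ok2269), at most 55.7 RPM. The groups of 3 and 5 libraries lie far apart: the lowest library with intact eri-1 was 190-fold above the highest with eri-1(mg366). The snoRNA gene F47E1.19 lies inside linc-22 on the same strand and had antisense reads in the same libraries, 2126 in N2 and 2 in eri-1(mg366), so part of the reads of this locus was counted there.

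linc-8 (II:2501838-2503802, minus strand, 5 exons) had 10937, 13029 and 15954 antisense reads in N2, dis-3(ust56) and exos-1(ust57). With eri-1(mg366) it had between 4 and 47 reads in the 5 L3 libraries. In eri-1(mg366) it was 170.3-fold lower than in N2 (95% interval 114 to 266). linc-11 (II:3373169-3374185, minus strand, 2 exons) had 369, 626 and 515 RPM in the same 3 libraries and between 10.6 and 57.8 RPM in the 5 libraries with eri-1(mg366), so it kept a larger share than linc-22 and linc-8 did.

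The 8 L3 libraries of total RNA can also be split into the 3 with intact eri-1 and the 5 with eri-1(mg366), a split chosen after these values were seen; the other alleles differ within both sets, and the nrde-3 reads differ between them as eri-1 does. Of 69 lincRNA genes with at least 20 antisense reads over the 8 libraries, 23 (33.3%) had every library with intact eri-1 above every library with eri-1(mg366), and 1 had the reverse. Over all 9769 genes tested, 2.73% lay fully above and 1.69% fully below. Among the 39 genes with 100 or more reads, the 20 that lay fully above were linc-22, linc-8, linc-46, linc-11, linc-45, linc-24, linc-41, linc-16, linc-21, linc-59, linc-15, linc-19, linc-17, linc-42, linc-14, linc-61, linc-12, linc-25, linc-68 and linc-121. In 18 others the libraries overlapped, and linc-133 had too few reads in these libraries. For 9 of the 20 genes the 5 libraries with eri-1(mg366) held no antisense read at all: linc-45, linc-41, linc-21, linc-59, linc-15, linc-19, linc-17, linc-12 and linc-25. These 9 genes had at most 2 reads in any RNAi library and at most 11 in any IP library, all of which carry eri-1(mg366). They met the limits of 20 and 100 reads only through the 3 libraries with intact eri-1. By these limits they could lie fully above or overlap, but not fully below, so they add no independent support to the split.

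**Figure D2:**
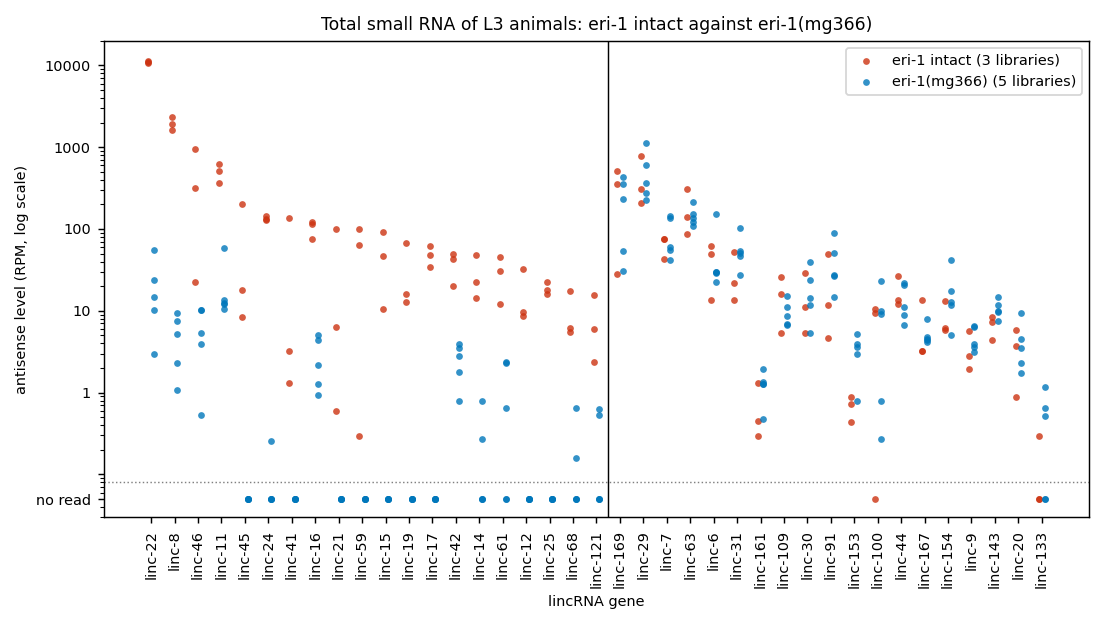
Antisense level (RPM, log axis; libraries with no read are drawn below the dotted line) of the 39 lincRNA genes in total small RNA of L3 larvae, each point 1 library, with intact eri-1 in red (3 libraries) and eri-1(mg366) in blue (5 libraries). In the 20 genes left of the black line every red point lies above every blue point; in linc-22 the gap is 190-fold.

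Single values show how sharp the difference was. linc-24 had 869, 976 and 885 antisense reads in the 3 libraries with intact eri-1 and 0, 1, 0, 0 and 0 in the 5 with eri-1(mg366), and against the floor of 3 reads it was at least 108-fold lower in eri-1(mg366) than in N2. linc-59 was at least 84.9-fold lower and linc-15 at least 78.1-fold lower by the same measure. The lowest libraries with intact eri-1 were not all well covered: linc-59 had only 2 reads in dis-3(ust56) and linc-21 only 4, where the floor is 3. The L3 libraries with eri-1(mg366) were also shallower, with floors from 0.473 RPM with exos-1(ust57) to 1.94 RPM with exos-10(ok2269). In dis-3(ust56) larvae linc-59, linc-21 and linc-41 had 0.295, 0.589 and 1.33 RPM. All 3 lie under the highest of these floors, but only linc-59 lies under the lowest. For these genes a count of 0 in a shallow library does not show a lower level. For linc-25, the overlapping non-coding RNA gene Y17D7C.9 on the same strand held 143 antisense reads in N2 and 14 in eri-1(mg366), against 121 and 0 on linc-25 itself.

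Gene structure and position did not enter the split. All 20 have more than 1 exon, while 9 of the 19 other genes with 100 or more reads have a single exon, as do 53 of all 169 lincRNA genes (31.4%). Their exonic length had a median of 499.5 bases, against 928.5 bases in the 18 genes whose libraries overlapped and 454 bases over all 169 genes. They also hold the 3 pairs of lincRNA genes, among all 169, that lie under 1 kb apart without overlapping, each pair on 1 strand: linc-19 and linc-45 on chromosome III (456 bases apart), linc-21 and linc-41 on chromosome IV (320 bases) and linc-17 and linc-68 on chromosome II (703 bases). These are descriptions of small sets and were not tested.

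A second set of genes kept their antisense reads in eri-1(mg366). linc-29 (IV:6354024-6357243, plus strand) had 779 RPM in N2 and 1118 in eri-1(mg366), a ratio of 1.44 (95% interval 1.371 to 1.503), and it was the lincRNA gene with the most antisense reads in eri-1(mg366), with 56.4% of them. It had 208 RPM in dis-3(ust56) larvae and 311 in exos-1(ust57). With eri-1(mg366) it had 223 with dis-3(ust56), 368 in the rrf-1 rrf-2 library, 274 with exos-1(ust57) and 599 with exos-10(ok2269). Every library with an exosome allele thus lay below the library without one in the same eri-1 background.

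linc-6 (X:1982710-1982883, minus strand) and linc-31 (V:8152035-8154464, minus strand) were both higher in eri-1(mg366) than in N2. linc-6 had 61.3 RPM in N2, 13.7 in dis-3(ust56) larvae and 49.2 in larvae with exos-1(ust57). It had 152 RPM in eri-1(mg366) and between 22.2 and 30.2 in the 4 other L3 libraries with that allele. It was 2.48-fold higher in eri-1(mg366) than in N2 (2.15 to 2.85). linc-31 had 51.9, 13.7 and 22.2 RPM in N2, dis-3(ust56) and exos-1(ust57), 103.8 in eri-1(mg366) and between 27.5 and 54.3 in the 4 other libraries, a ratio of 2.00 for eri-1(mg366) to N2 (1.70 to 2.35).

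linc-7 (X:16002599-16003728, plus strand) and linc-63 (I:3870642-3871267, minus strand) complete the set. linc-7 had 74.5 RPM in N2, 43.0 in dis-3(ust56) larvae and 76.1 in exos-1(ust57). In eri-1(mg366) it had 137 RPM, and 41.8 with dis-3(ust56), 56.1 in the rrf-1 rrf-2 library, 60.6 with exos-1(ust57) and 143 with exos-10(ok2269) in the eri-1(mg366) background. linc-63 had 86.4, 142 and 306 RPM in N2, dis-3(ust56) and exos-1(ust57), and in the 5 libraries with eri-1(mg366) it lay between 108 and 211 RPM. For linc-63 the 2 sets of libraries overlap and the highest value was that of exos-1(ust57), 3.54-fold above N2 (3.22 to 3.88).

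The 8 genes linc-109, linc-30, linc-44, linc-167, linc-154, linc-9, linc-143 and linc-20 were low in all 8 L3 libraries of total RNA, with linc-154 the highest at 41.3 RPM (in the exos-10(ok2269) library). Their largest counts in a library were 372 for linc-44, 323 for linc-30 and 305 for linc-109, and between 102 and 160 for the 5 others. linc-154 and linc-143 overlap genes on their own strand, cel-mir-8196a and daf-2, with which their reads can be shared.

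**Figure D3:**
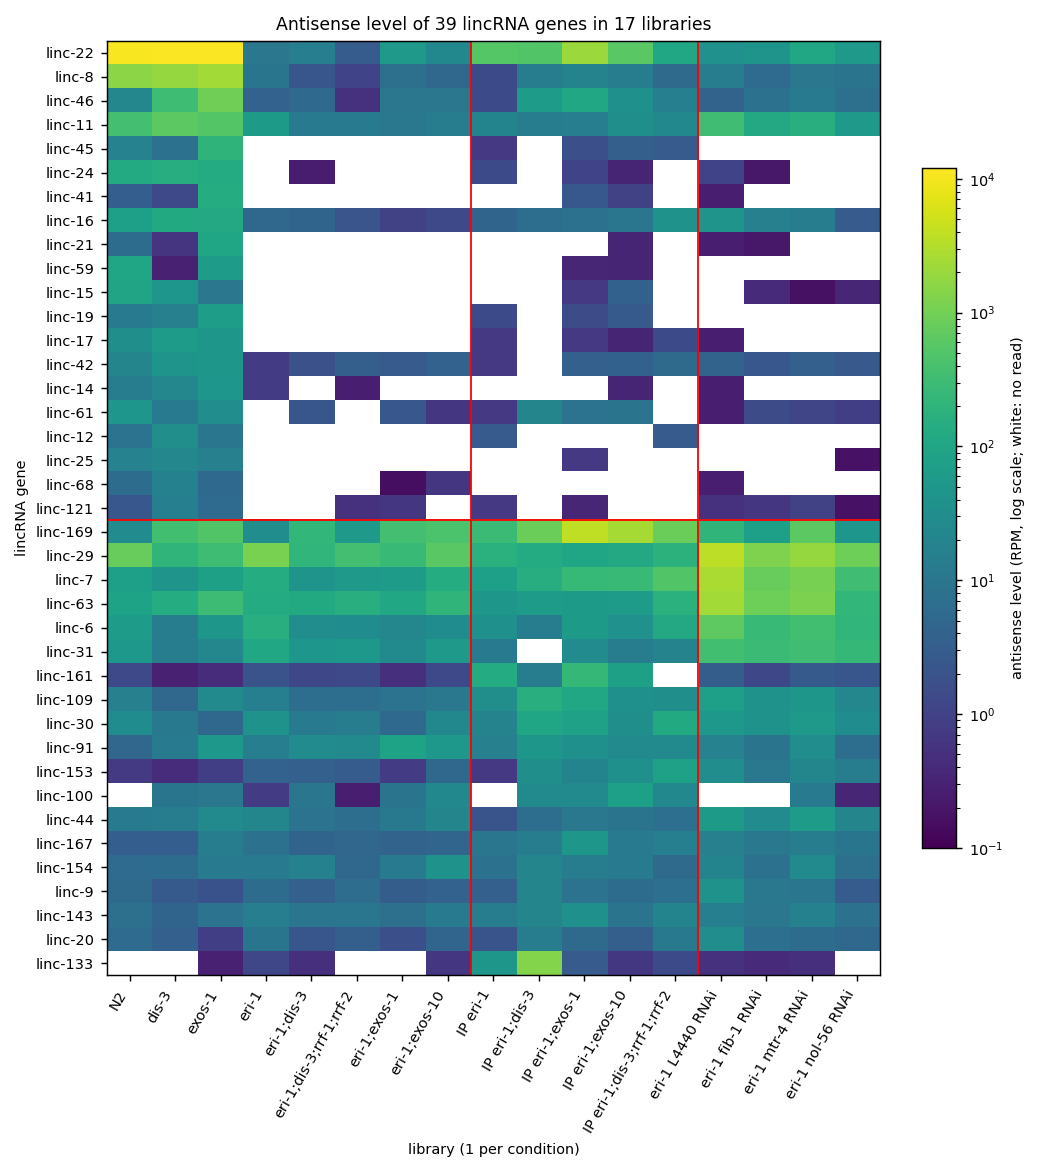
Antisense level (RPM, log colour scale, white where there was no read) of the 39 lincRNA genes (rows) in the 17 libraries (columns); red vertical lines part L3 total RNA, NRDE-3 IP and young adult RNAi libraries, and the red horizontal line parts the 20 genes that lie fully above with intact eri-1 from the 19 others. linc-22 is brightest in the first 3 columns (10575 to 11355 RPM), and linc-29, linc-7 and linc-63 in the young adult columns (up to 3671, 2754 and 2348 RPM).

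The exosome alleles were compared with N2 and, separately, within the eri-1(mg366) background. Against N2 the summed antisense level was 1.06-fold in dis-3(ust56) (95% interval 1.05 to 1.07) and 1.23-fold in exos-1(ust57) (1.22 to 1.24; 1.68 without linc-22). Of 48 lincRNA genes tested in dis-3(ust56), 9 were at least 2-fold higher, where 11.8% of all genes were, and 13 at least 2-fold lower, where 32.9% of all genes were; the median log2 ratio was 0.00 over the lincRNA genes and -0.67 over all genes. Of 53 tested in exos-1(ust57), 22 were higher (22.2% of all genes) and 10 lower (13.7% of all genes), with medians of 0.55 and 0.03.

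In the eri-1(mg366) background the sums went the other way. The ratio to eri-1(mg366) was 0.457 with dis-3(ust56) (0.437 to 0.477), 0.588 with exos-1(ust57) (0.567 to 0.609) and 0.941 with exos-10(ok2269) (0.899 to 0.985), and linc-29 alone accounted for 56.4% of the reads of the control. With dis-3(ust56), 2 of 27 genes were higher (7.93% of all genes) and 13 lower (38.1% of all genes). With exos-1(ust57), 13 of 34 genes were higher (17.2% of all genes) and 12 lower (32.7% of all genes). With exos-10(ok2269), 7 of 25 genes were higher (36.5% of all genes) and 3 lower (12.8% of all genes). These ratios depend on the denominator: with sense miRNA reads in its place the ratio of exos-1(ust57) to eri-1(mg366) was 1.22, and that of dis-3(ust56) to N2 was 0.644.

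linc-169 (II:7371784-7372735, plus strand, 2 exons) was higher in every exosome mutant library. It had 28.5 RPM in N2, 353 in dis-3(ust56) larvae and 508 in exos-1(ust57). In the eri-1(mg366) background it had 31.1 RPM in the control, 232 with dis-3(ust56), 358 with exos-1(ust57) and 437 with exos-10(ok2269), all above the control by 7.46-fold (5.92 to 9.51) or more. Its ratio to N2 was 12.4 in dis-3(ust56) (10.7 to 14.4) and 17.8 in exos-1(ust57) (15.4 to 20.7). However, 121 of its 654 exonic bases (18.5%) overlap exons of mtch-1, a protein-coding gene on the opposite strand, and the sense reads of mtch-1 moved in the same direction: 47.0 RPM in N2, 263 in dis-3(ust56) larvae and 388 in exos-1(ust57), then 104 in the eri-1(mg366) control, 377 with dis-3(ust56), 566 with exos-1(ust57) and 691 with exos-10(ok2269). Both are reads of the same DNA strand, while antisense reads of mtch-1 numbered between 5 and 119 per library. The part of mtch-1 transcripts in the reads counted as antisense to linc-169 was not tested.

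**Figure D4:**
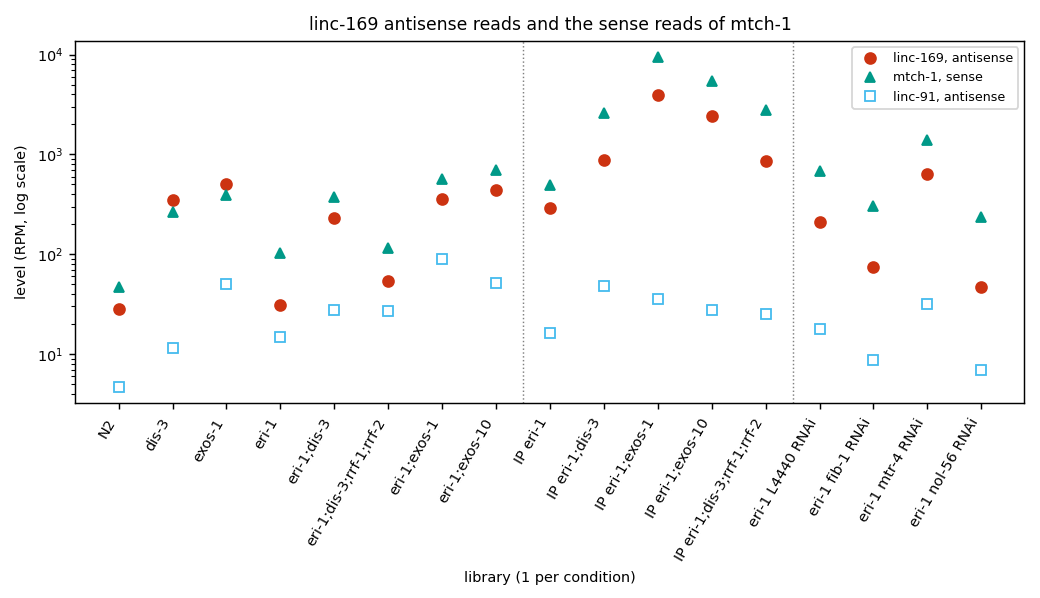
Antisense level of linc-169 (red circles) and of linc-91 (open blue squares) and sense level of mtch-1 (green triangles), in RPM on a log axis, in each of the 17 libraries. Red and green are lowest in N2 (28.5 and 47.0 RPM) and highest in the IP library labelled exos-1(ust57) (3887 and 9396 RPM), while linc-91 reaches 89.5 RPM at most.

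Of the other genes that were higher with exosome alleles, linc-100, linc-91 and linc-46 have no opposite-strand exon in the annotation. linc-100 (X:16775220-16775505, minus strand, 1 exon) had 0 antisense reads in N2, 63 in dis-3(ust56) larvae and 71 in exos-1(ust57), at least 21.0-fold and 23.8-fold higher against the floor of 3 reads. In the eri-1(mg366) background it had 2 reads in the control, 39 with dis-3(ust56), 58 with exos-1(ust57) and 36 with exos-10(ok2269), with ratios of 12.8 (3.32 to 109), 11.6 (3.08 to 98.4) and 29.6 (7.61 to 253). It is thus near absent in both controls and present in all 5 libraries with an exosome allele and intact rrf-1 and rrf-2.

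linc-91 (I:4699610-4702866, plus strand, 1 exon) had 4.70 RPM in N2, 11.6 in dis-3(ust56) larvae and 50.1 in exos-1(ust57). In the eri-1(mg366) background it had 14.9 RPM in the control, 27.6 with dis-3(ust56), 89.5 with exos-1(ust57) and 51.0 with exos-10(ok2269). The ratio was 10.7 for exos-1(ust57) to N2 (7.41 to 15.8) and 5.99 in the eri-1(mg366) background (4.31 to 8.55), while with dis-3(ust56) in that background it was 1.85 (1.27 to 2.75), under the 2-fold limit.

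linc-46 (II:1990692-1991487, minus strand, 2 exons) was higher with both exosome alleles and was low in eri-1(mg366). It had 153 antisense reads in N2, 2128 in dis-3(ust56) larvae and 6505 in exos-1(ust57), ratios of 13.9 (11.8 to 16.5) and 42.8 (36.4 to 50.5). With eri-1(mg366) it had 10 reads in the control, 21 with dis-3(ust56), 2 in the rrf-1 rrf-2 library, 64 with exos-1(ust57) and 16 with exos-10(ok2269). None of these 5 libraries reached 10.4 RPM, where exos-1(ust57) alone reached 962.

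Several short genes with no antisense read in any L3 library with eri-1(mg366) differed between dis-3(ust56) and exos-1(ust57). linc-41 had 22 reads in N2, 9 in dis-3(ust56) larvae and 926 in exos-1(ust57), and its neighbour linc-21 had 43, 4 and 681. linc-45 had 122, 57 and 1356 reads and its neighbour linc-19 had 88, 110 and 457. All 4 genes were higher in exos-1(ust57) than in N2, by 42.3-fold, 15.9-fold, 11.2-fold and 5.22-fold, and none of the 4 was at least 2-fold higher in dis-3(ust56). In the third pair the order was another: linc-68 had 42, 117 and 37 reads and linc-17 had 234, 415 and 328. linc-59 had 681 reads in N2, 2 in dis-3(ust56) larvae and 428 in exos-1(ust57), and linc-15 had 627, 314 and 71. With 1 library each, a difference between these alleles cannot be told apart from one between libraries.

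The rrf-1 rrf-2 library was compared with the eri-1(mg366) library that carries dis-3(ust56) alone, to see which lincRNA siRNAs need these polymerases. The ratio of the sums was 0.960 (95% interval 0.915 to 1.01), an interval that includes 1. Of 26 lincRNA genes tested, 6 were at least 2-fold lower, where 5.66% of all genes were, and 0 at least 2-fold higher, where 14.9% of all genes were; the median log2 ratio was 0.00 over the lincRNA genes and 0.38 over all genes. linc-169 fell from 232 to 53.4 RPM, a ratio of 0.231 (0.197 to 0.269), while sense mtch-1 reads went from 377 to 116 RPM. linc-100 went from 39 reads to 1, a ratio of 0.0267 (0.000658 to 0.157), linc-46 from 21 to 2 and linc-22 from 57 to 11. linc-29 went from 223 to 368 RPM, linc-63 from 121 to 152 and linc-91 from 27.6 to 26.9. Without linc-169 the ratio of the sums was 1.21 (1.15 to 1.28).

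Of linc-169, linc-100 and linc-91, which were higher with exosome alleles, the first and the second were thus more than 2-fold lower in the total RNA library without these polymerases. linc-91 had a ratio of 0.971 (0.732 to 1.29) there. For linc-169 the sense reads of mtch-1 fell as well (377 to 116 RPM), so its fall cannot be told apart from that of mtch-1 RNA. Between the IP libraries of these genotypes, neither linc-169 nor linc-100 was 2-fold lower, and linc-100 had few reads in both. The difference between the genes was not tested.

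Antisense reads of the lincRNA genes were compared between the NRDE-3 IP libraries. Relative to the control, the summed antisense level was 2.52-fold with dis-3(ust56) (2.30 to 2.77), 2.74-fold with exos-10(ok2269) (2.61 to 2.86) and, for the library labelled exos-1(ust57), 4.95-fold (4.74 to 5.17). Most genes outside the lincRNA class were higher too. With antisense protein-coding reads as the denominator the ratios with dis-3(ust56) and exos-10(ok2269) were 0.968 and 0.791, and per read counted on transcripts the ratio with dis-3(ust56) was 0.332. Of the lincRNA genes tested, 6 of 13 were higher with dis-3(ust56) where 57.6% of all genes were, 33 of 42 in the library labelled exos-1(ust57) where 80.3% of all genes were, and 19 of 34 with exos-10(ok2269) where 78.3% of all genes were. In each of these comparisons 1 lincRNA gene was lower, where 7.68%, 4.48% and 4.17% of all genes were. Median log2 ratios were 0.96, 2.32 and 1.13 over the lincRNA genes and 1.28, 2.26 and 2.23 over all genes.

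linc-169 and linc-22 had the most antisense reads in the control IP, in the IP library labelled exos-1(ust57) and in that of exos-10(ok2269). In the dis-3(ust56) IP linc-133 came first (197 reads, against 127 and 72 for linc-169 and linc-22), and in the rrf-1 rrf-2 IP linc-169, linc-7 and linc-29 did (605, 360 and 131 reads). linc-169 had 291 RPM in the control, 871 with dis-3(ust56), 3887 in the library labelled exos-1(ust57), 2431 with exos-10(ok2269) and 853 in the rrf-1 rrf-2 library. Sense mtch-1 reads in the same order were 489, 2587, 9396, 5394 and 2810 RPM. linc-22 had 542, 494, 2082, 608 and 113 RPM in that order, so it was higher in the library labelled exos-1(ust57) and lower in the rrf-1 rrf-2 library, by 4.38-fold against dis-3(ust56) (3.14 to 6.10).

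linc-46, linc-100 and linc-153 were near absent from the control IP. linc-46 had 2 reads in the control, 9 with dis-3(ust56), 316 in the library labelled exos-1(ust57), 103 with exos-10(ok2269) and 11 in the rrf-1 rrf-2 library. linc-100 had 0, 4, 71, 213 and 17 reads in that order, at least 34.1-fold higher with exos-10(ok2269) than in the control. linc-153 had 1, 5, 56, 106 and 58 reads. These are raw reads, and the normalization numbers of the libraries were 1414431, 145736, 2819713, 2943838 and 709156 in that order. Reads in different IP libraries therefore do not compare as levels do. In RPM linc-153 was highest in the rrf-1 rrf-2 IP library (81.8) and linc-100 in that of exos-10(ok2269) (72.4).

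linc-161 and linc-133 had other patterns. linc-161 (III:12098751-12099477, minus strand, 1 exon) had 186 reads in the control, 2 with dis-3(ust56), 676 in the library labelled exos-1(ust57), 225 with exos-10(ok2269) and 0 in the rrf-1 rrf-2 library. In the L3 and young adult libraries of total RNA it had between 2 and 16 reads. linc-133 (II:7837826-7841485, plus strand, 2 exons) had 70 reads in the control, 197 with dis-3(ust56), then 8, 2 and 1, and at most 3 in any library of total RNA. On the opposite strand it overlaps linc-110 and the non-coding RNA gene T09A5.18 over 865 of its exonic bases (26.1%). In the control the sense reads of linc-110 and T09A5.18 numbered 77 and 55, and with dis-3(ust56) 193 and 204, close to the antisense reads of linc-133. These are reads of 1 strand over shared bases and cannot be told apart from sense RNA of linc-110 or T09A5.18.

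Between the rrf-1 rrf-2 IP library and that of dis-3(ust56) the ratio of the sums was 0.684 (0.622 to 0.752), and 2.26 (2.05 to 2.48) per read counted on transcripts. Of 15 lincRNA genes tested, 6 were higher (28.7% of all genes) and 5 lower (13.6% of all genes). The lower ones include linc-22, linc-133 and linc-46, whereas linc-169 went from 871 to 853 RPM, a ratio of 0.979 (0.807 to 1.20), and linc-7 was 3.52-fold higher (2.27 to 5.76). The dis-3(ust56) IP library holds only 570 lincRNA antisense reads, 197 of them on linc-133, and without the genes that share exonic bases with an opposite-strand gene other than a piRNA the ratio was 1.03.

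Each IP library was compared with total RNA of the same labelled genotype, to see which lincRNA antisense reads were over-represented in the IP. Sense reads of the lincRNA genes rose more than their antisense reads in every pair. In the order of the pairs below, the ratios of the summed sense levels were 2.14, 18.5, 10.3, 3.22 and 12.2. The antisense ratios therefore do not by themselves show siRNAs bound to NRDE-3. In eri-1(mg366) the ratio of the sums was 0.781 (0.743 to 0.822), with 5 of 23 genes higher (33.0% of all genes) and 10 lower (27.4% of all genes). With dis-3(ust56) it was 4.32 (3.94 to 4.72), with 10 of 18 higher (62.9% of all genes) and 1 lower (9.75% of all genes). In the pair labelled exos-1(ust57) it was 6.57 (6.40 to 6.75), with 40 of 51 higher (85.0% of all genes) and 2 lower (3.93% of all genes). With exos-10(ok2269) it was 2.27 (2.18 to 2.36), with 21 of 37 higher (75.2% of all genes) and 6 lower (8.72% of all genes). In the rrf-1 rrf-2 pair it was 3.07 (2.90 to 3.25), with 15 of 23 higher (76.2% of all genes) and 1 lower (5.40% of all genes). In all but the first pair the ratio went from above 1 to below 1 when antisense protein-coding reads served as the denominator (0.579 to 0.739). In the first pair, already below 1, lincRNA antisense reads equalled 2.18% of the antisense coding reads in total RNA and 1.32% in the IP. In every pair they were thus smaller relative to the antisense coding reads in the IP than in total RNA. Per read counted on transcripts the ratio was 0.171 with dis-3(ust56) and 0.463 in the rrf-1 rrf-2 pair.

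linc-22 was over-represented in every IP, by 53.0-fold in eri-1(mg366) (35.9 to 81.7), 33.6-fold with dis-3(ust56) (23.4 to 48.4), 37.4-fold in the pair labelled exos-1(ust57) (33.6 to 41.7), 25.5-fold with exos-10(ok2269) (18.4 to 36.3) and 38.2-fold without rrf-1 and rrf-2 (20.2 to 79.6). Its sense reads were higher in every IP too. In that order they went from 5.50 to 58.7, 11.6 to 364, 12.3 to 193, 14.9 to 186 and 14.8 to 778 RPM. How much of the antisense excess is binding to NRDE-3 was not tested. linc-161 was 66.9-fold higher in the IP of eri-1(mg366) (28.2 to 208), and linc-169 9.35-fold (7.34 to 12.1). linc-29 and linc-31 were under-represented in some pairs. linc-29 was 6.25-fold lower in the IP of eri-1(mg366) (5.50 to 7.14), 2.78-fold lower in the pair labelled exos-1(ust57) (2.45 to 3.17) and 5.20-fold lower with exos-10(ok2269) (4.59 to 5.91). With dis-3(ust56) and in the rrf-1 rrf-2 pair its ratios were 0.584 (0.350 to 0.918) and 0.502 (0.416 to 0.600), short of the limit. linc-31 was 8.64-fold lower in eri-1(mg366) (5.29 to 15.1), 3.90-fold with exos-10(ok2269) (2.65 to 5.81) and 2.78-fold in the rrf-1 rrf-2 pair (1.59 to 5.32), at least 2.25-fold lower with dis-3(ust56), where the IP held no read, and at a ratio of 1.02 (0.772 to 1.34) in the pair labelled exos-1(ust57).

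**Figure D5:**
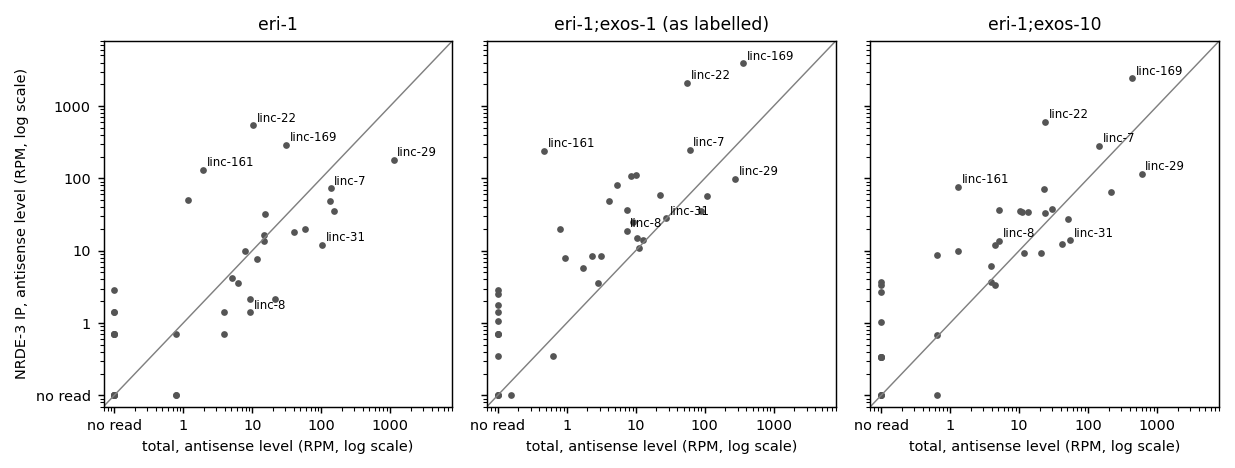
Antisense level of the 39 lincRNA genes in NRDE-3 IP (vertical axis) against total small RNA of the same labelled genotype (horizontal axis), both in RPM on log axes, each point 1 gene and the diagonal marking equal levels; genes with no read are drawn at the lower or left end. linc-22 and linc-161 lie above the diagonal in all 3 panels and linc-29 below it, 6.25-fold in eri-1(mg366).

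In young adults on RNAi, other genes led. With L4440, linc-29, linc-7 and linc-63 had 3671, 2754 and 2348 RPM and together 80.0% of the lincRNA antisense reads, followed by linc-6 (662), linc-31 (351) and linc-11 (333). In L3 larvae of eri-1(mg366) the first 3 of these genes had 1118, 137 and 135 RPM, but stage, feeding and library differ together here and cannot be told apart. linc-22 had 37.9 RPM with L4440, 42.6 with fib-1 RNAi, 106 with mtr-4 RNAi and 53.6 with nol-56 RNAi, well under its level with intact eri-1 in L3 larvae.

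RNAi against fib-1 and nol-56, which encode the box C/D snoRNP proteins fibrillarin and NOP56, went with lower lincRNA antisense levels. The fall was not particular to lincRNA genes. Antisense levels of protein-coding genes were 482140 RPM with L4440, 348458 with fib-1 RNAi and 199362 with nol-56 RNAi. The ratio of the sums to L4440 was 0.369 with fib-1 RNAi (0.363 to 0.375), with 21 of 36 genes lower (38.9% of all genes) and 0 higher (4.46% of all genes). With nol-56 RNAi it was 0.211 (0.207 to 0.215), with 25 of 40 lower (78.0% of all genes) and 0 higher (3.55% of all genes). Median log2 ratios were -1.03 and -1.29 over the lincRNA genes and -0.82 and -2.11 over all genes. linc-29 had 1240 RPM with fib-1 RNAi and 910 with nol-56 RNAi. linc-7 had 807 and 326 RPM in that order and linc-63 891 and 229. linc-31 differed less, with 284 and 245 RPM against 351 with L4440.

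RNAi against mtr-4 gave a ratio of 0.575 (0.567 to 0.584), with 10 of 47 genes higher (10.3% of all genes) and 7 lower (52.0% of all genes), and a median log2 ratio of -0.21 over the lincRNA genes against -1.07 over all genes. The genes that were higher include linc-100, linc-169 and linc-46, which were also higher with exosome alleles against N2. They also include linc-22, with 631 antisense reads against 144 with L4440. linc-22 lay between 10575 and 11355 RPM in N2, dis-3(ust56) and exos-1(ust57) larvae, so it did not share that pattern. linc-100 had 0 antisense reads with L4440, 0 with fib-1 RNAi, 71 with mtr-4 RNAi and 2 with nol-56 RNAi, at least 15.1-fold higher with mtr-4 RNAi than with L4440. linc-169 had 211, 74.4, 636 and 47.4 RPM in that order, 3.01-fold higher with mtr-4 RNAi (2.79 to 3.26), and sense mtch-1 had 681, 303, 1406 and 235 RPM. linc-46 had 16, 36, 76 and 42 reads, 3.03-fold higher (1.75 to 5.57), and linc-91 had 68, 41, 188 and 39 reads, a ratio of 1.76 (1.33 to 2.36). linc-29 and linc-7 were at 1879 and 1112 RPM with mtr-4 RNAi, below their values with L4440.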

How the data were processed

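Per the labels and the study's methods, small RNAs were treated with phosphatase and kinase, sequenced on an Illumina platform, cleaned by the sequencing company and mapped by the authors with Bowtie2 against the genome and transcriptome of WS243; default parameters were used, under which 1 alignment is reported per read, while the version and how the authors' counting treated reads that match several transcripts are not given in the sources used here. The files the authors deposited hold raw read counts per transcript in a pair of columns with no header. At least 98.1% of the miRNA reads of a library fell in the first of these, which was therefore read as the sense strand. Up to 3 cells of a file were blank and were set to 0.

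To get the normalization number, sense reads of rRNA and of protein-coding genes were subtracted from all reads on transcripts; the study's own number starts from reads mapped to the genome. Positions and overlaps come from Ensembl release 115 (WBcel235), which held 44848 of 45506 gene IDs and may differ from WS243 in gene models. Reads counted on a part shared by overlapping genes cannot be assigned to 1 of them, and 11 of the 39 genes overlap a gene on their own strand. Ratios have exact conditional 95% intervals, with no p-value, since each condition has 1 library. Calls across all genes needed 20 reads in both libraries together and 2-fold with a pseudocount of 1 read. Against a library with no read, folds are bounds against 3 reads. Genes with 100 or more antisense reads in a library were named, the 12 with the highest level in most detail. No genome sequence was at hand, so no sequence is shown. The members and lists were chosen with earlier results of these data known. Alternatives were other denominators, limits of 4-fold, 50 reads and 50 reads to name a gene, and sums without linc-22 or without genes overlapped on the opposite strand; sums without linc-169, and without genes that share exonic bases with an opposite-strand gene other than a piRNA, were added after seeing the data. The calls and intervals were run on simulated Poisson counts with a known 4-fold difference in some genes. These counts hold no PCR copies and no spread between libraries, so the run covers counting error only. The tools were scipy 1.17.1, numpy 2.4.6 and pandas 2.3.3 under Python 3.11.15, with matplotlib 3.10.9 for figures.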

Additional observations from a re-analysis of the deposited data

Results flagged for a closer look

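The effect of 2 exosome alleles on the summed lincRNA antisense level had opposite directions in the 2 eri-1 backgrounds under the normalization used, but not under every denominator. For dis-3(ust56), the ratio was 1.06 against N2 and 0.457 in the eri-1(mg366) background. For exos-1(ust57), it was 1.23 against N2 and 0.588 in the eri-1(mg366) background. Each value rests on 1 library per side and the difference was not tested. With sense miRNA reads as the denominator both backgrounds went the same way, with 0.644 and 0.524 for dis-3(ust56) and 1.22 and 1.22 for exos-1(ust57). Without genes overlapped on the opposite strand dis-3(ust56) gave 0.813 and 0.344, and per antisense protein-coding read exos-1(ust57) gave 0.995 and 1.15. In N2 the sum is mostly linc-22 (73.5% of the reads) and in eri-1(mg366) mostly linc-29 (56.4%).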

How the results depend on the processing

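The denominator and a few genes decide several sums. Of 128 ratios of summed levels under alternatives, 103 kept their direction and their side of 1, 21 turned, 3 moved past 1 beyond their interval and 1 no longer did. Without genes overlapped on the opposite strand, which leaves out linc-22 and linc-8, the ratio of eri-1(mg366) to N2 was 1.11, of dis-3(ust56) to N2 0.813, of the rrf-1 rrf-2 library to its control 1.30, of the rrf-1 rrf-2 IP library to its control 0.956, and of IP to total with exos-10(ok2269) 0.616. Without genes that share exonic bases with an opposite-strand gene other than a piRNA, the rrf-1 rrf-2 ratio was 1.24 in total RNA and 1.03 in the IP, and without linc-169 it was 1.21 in total RNA; both choices were made after seeing the data. With sense miRNA reads as the denominator, dis-3(ust56) to N2 was 0.644, exos-1(ust57) to eri-1(mg366) in that background 1.22 and the rrf-1 rrf-2 ratio 0.852. With antisense protein-coding reads, exos-1(ust57) to N2 was 0.995, exos-1(ust57) in the eri-1(mg366) background 1.15, the rrf-1 rrf-2 ratio 0.847, and IP to control 0.968 with dis-3(ust56) and 0.791 with exos-10(ok2269). IP to total was then 0.739 with dis-3(ust56), 0.690 with exos-1(ust57), 0.579 with exos-10(ok2269) and 0.642 for rrf-1 rrf-2. With all reads on transcripts, the rrf-1 rrf-2 ratio was 0.833 in total RNA and 2.26 in the IP, dis-3(ust56) IP to control was 0.332, and IP to total was 0.171 with dis-3(ust56) and 0.463 for rrf-1 rrf-2. The cause of the changes with the denominator was not tested. Over the 19 comparisons 384 calls were made on lincRNA genes, 215 with a 4-fold limit and 251 with 50 reads. With a limit of 50 reads 50 genes rather than 39 would be named. Of 152 counts per comparison, 77 stayed within 1.5 times. No paired analysis was possible because each condition has 1 library.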
